A study of Mus musculus with 13 samples.

Results

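The regions described here are the places where a Gli3 peak and an Nkx2.2 peak of 2 separate ChIP-seq experiments met on the mouse genome. A Gli3 peak was taken as a member when it shared at least 1 bp with a peak of the Nkx2.2 list, whatever else lay there, which gave 425 of the 1888 Gli3 peaks. Members were thus chosen by the deposited positions of the peaks of these lists, and by no other value. That share is 22.5% of the Gli3 list (95% Wilson interval 20.7 to 24.5), and the 439 Nkx2.2 peaks met, called partner peaks below, are 7.91% of the 5551 in their list. These counts are the rule itself and are given as a description.

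ChIP-seq (sequencing of DNA that is precipitated with an antibody to a bound protein) was carried out on embryonic stem cells of the mouse that had been differentiated into neural progenitors, as 7 ChIP libraries and 6 input libraries of unprecipitated chromatin. All cultures had 2 days in suspension and 3 days of induction with 500 nM all-trans retinoic acid. Nkx2.2, Nkx6.1 and Olig2 were profiled in ventral progenitors, whose medium also held 160 to 800 nM Smoothened agonist, a compound that turns on Sonic hedgehog signalling. Gli3 was profiled in dorsal progenitors, made without the agonist. Gli3 had 1 ChIP library, from the V6.5 line (C57BL/6 X 129/sv) with a 3xFLAG-Avi tag at the Gli3 initiation codon, precipitated with the anti-FLAG M2 clone. Nkx2.2 had 2 ChIP libraries, precipitated with a cocktail of Nkx2.2 antibodies from Rosa26-Gli1FLAG cells, a derivative of the YFP3.1 line on a mixed background (Swiss Webster, 129 Sv and C57BL6/J) that carries a FLAG-tagged Gli1. Nkx6.1 and Olig2 had 2 ChIP libraries each, replicate 1 from YFP3.1 and replicate 2 from the Rosa26-Gli1FLAG derivative. Factor, culture, cell line and antibody cannot be told apart in any comparison with Gli3, and an overlap of these lists does not show that the proteins bound in the same cell. No expression was measured, so the labelled dorsal and ventral character could not be checked against marker genes.

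Gli3 is a zinc-finger transcription factor of the Sonic hedgehog pathway. In cells without the signal it is processed to a form that represses target genes, and this repressor is needed for dorsal and intermediate cell identities in the neural tube. Nkx2.2 is a homeodomain protein of the p3 progenitor domain next to the floor plate and acts mainly as a repressor of alternative fates. Olig2, a basic helix-loop-helix protein of motor neuron progenitors, and Nkx6.1, a homeodomain protein of a broader ventral domain, are also largely repressors there. The ventral factors are induced in the neural tube by the pathway in which Gli3 acts.

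The data were 1 list of peaks per factor on the build mm9, every peak 300 bp wide and without a score, and a table of coverage for each ventral list. The Nkx6.1 list held 4094 peaks and the Olig2 list 11747. Each coverage table gives values from 2000 bp before to 2000 bp after a peak's centre in 3 blocks that name no library, called block 1, block 2 and block 3 here. Which library a block holds, a ChIP or an input, is not stated in these sources, so the blocks cannot be used as replicates. Each coverage table is labelled with 3 codes, and those of Nkx6.1 and Olig2 share only the last code. The only library titled for both of these factors is an input. If the codes follow the order of the blocks, block 3 of these tables is that input. Block 3 of the Nkx2.2 table may likewise be an input, so a high value in it is not read as Nkx2.2 binding. A high value in any other block may also be that of an input. The scaling of the blocks is not stated either, and read depth is unknown, so coverage is compared only within a table and a block, in the deposited units. No coverage table of Gli3 was used. With 1 list per factor no test over samples was possible. The intervals cover counting error over peaks only, and neighbouring peaks are not independent.

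The rule holds the centres of a member and its partner peak under 300 bp apart. Within that limit, as a description, the median distance was 72 bp, and the middle 50% of members lay between 33 and 128 bp. Centres were under 50 bp apart in 148 members (34.8%) and at most 100 bp apart in 278 (65.4%), while 53 (12.5%) were 200 bp or more away. Counts per 50 bp fell from 148 in the first bin to 18 in the last bin inside the rule, 250 to 300 bp, and the next bin outside it, 300 to 350 bp, held 13 Gli3 peaks. The rule therefore cuts a thin tail. A further 110 Gli3 peaks had their nearest Nkx2.2 centre 300 to 2000 bp away.

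**Figure D1:**
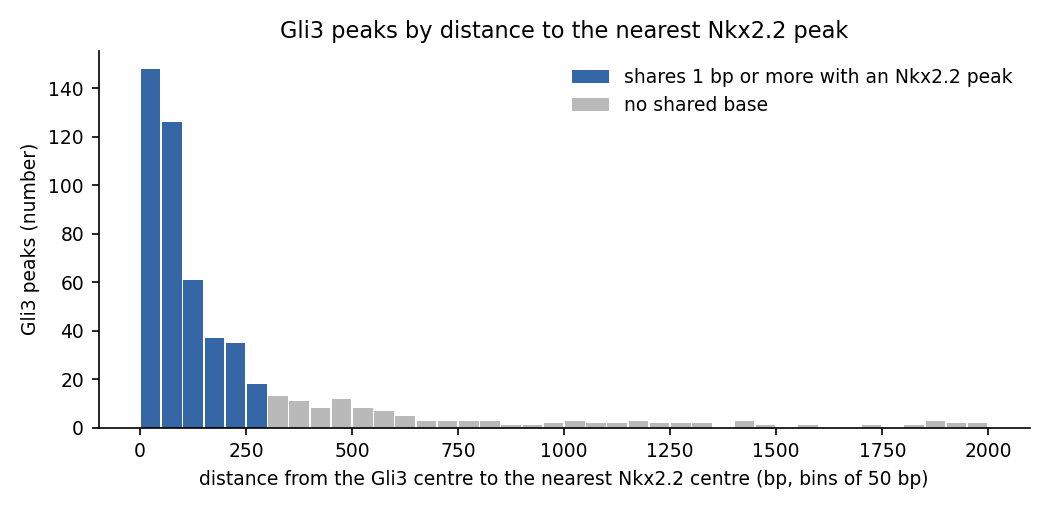
Number of Gli3 peaks (vertical axis) in bins of 50 bp of the distance from the Gli3 centre to the nearest Nkx2.2 centre (horizontal axis, bp, up to 2000 bp). Blue bars are the 425 members and grey bars are peaks outside the rule; counts fall from 148 in the first bin to 18 just inside and 13 just outside the threshold.

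The members nearest to the threshold show how small the overlap could be. The Gli3 peak at chr11:86571212-86571511 shared 1 bp with its partner, the one at chr12:91467603-91467902 shared 4 bp, and the one at chr9:99468769-99469068 shared 5 bp. The Gli3 peaks just outside were chr8:72520438-72520737, chr13:52016005-52016304 and chr2:119373109-119373408, which lay 11, 14 and 20 bp from the edge of an Nkx2.2 peak. Block 1 coverage at the Nkx2.2 peaks was 17.8, 39.1 and 11.7 units for those just inside and 61.3, 42.4 and 13.5 units for those just outside, so these ranges overlapped.

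Most members paired 1 Gli3 peak with 1 Nkx2.2 peak. Of the 425 members, 406 met 1 Nkx2.2 peak, 18 met 2 and 1 met 3 or more. Of the 439 partner peaks, 433 met 1 Gli3 peak and 6 met 2. Some members lay near another: 14 of the 425 had another member closer than 1 kb, 24 closer than 10 kb and 79 closer than 100 kb. The same counts were not taken over all Gli3 peaks, so whether members cluster more than the list was not tested. Of windows of 100 kb, 377 held 1 member, 24 held 2 and none held more. The first 2 of these 24 by position were chr2:137500001-137600000, with 2 Gli3, 2 Nkx2.2, 4 Olig2 and 2 Nkx6.1 peaks, and chr2:150500001-150600000, with 2 Gli3, 2 Nkx2.2, 3 Olig2 and 1 Nkx6.1 peaks. Among them is also chr6:52100001-52200000, where 9 Nkx2.2, 10 Olig2, 9 Nkx6.1 and 6 Gli3 peaks made 2 members.

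The next question was how often the other ventral factors, which the rule did not use, were found at the members. Olig2 peaks overlapped 136 members (32.0%, 27.7 to 36.6), against 20.1% of all Gli3 peaks and 16.6% (14.8 to 18.6) of the 1463 Gli3 peaks without Nkx2.2. The difference between members and the other Gli3 peaks was 15.4 percentage points (95% Newcombe interval 10.7 to 20.3). Nkx6.1 peaks overlapped 78 members (18.4%, 15.0 to 22.3), against 7.36% of all Gli3 peaks and 4.17% (3.26 to 5.32) of the others, a difference of 14.2 points (10.6 to 18.2). At least 1 of the 2 factors lay at 148 members (34.8%, 30.4 to 39.5), with 21.7% of all Gli3 peaks as the background. The remaining 277 members (65.2%) held Nkx2.2 as their only ventral factor.

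The excess was made up mostly of regions that held all 4 factors. Olig2 and Nkx6.1 together lay at 66 members (15.5%, 12.4 to 19.3), against 5.77% of all Gli3 peaks and 2.94% of those without Nkx2.2, a difference of 12.6 points (9.30 to 16.4). Olig2 without Nkx6.1 lay at 70 members (16.5%), with 14.3% of all Gli3 peaks as the background, and the difference from the other Gli3 peaks, 2.80 points, had an interval that included 0 (-0.919 to 6.97). Nkx6.1 without Olig2 lay at 12 members (2.82%, background 1.59%), 1.59 points above the others (0.200 to 3.69). Put the other way, where a Gli3 peak met Olig2, Nkx6.1 was there too in 66 of 136 members (48.5%, 40.3 to 56.9) and in 43 of 243 other Gli3 peaks (17.7%, 13.4 to 23.0).

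Nkx2.2 peaks overlap the other ventral lists wherever they lie, so the same shares were read from the Nkx2.2 side. Of the 439 partner peaks 151 met Olig2 (34.4%, 30.1 to 39.0), against 24.3% of all Nkx2.2 peaks and 23.4% of the 5112 without Gli3, a difference of 11.0 points (6.53 to 15.7). Olig2 or Nkx6.1 lay at 162 (36.9%, background 30.3%) and at 29.8% of the others, a difference of 7.13 points (2.57 to 11.9). Both lay at 70 partner peaks (15.9%, background 10.1%) and at 9.59% of the others, a difference of 6.36 points (3.12 to 10.2). For Nkx6.1 alone as the measure, 81 partner peaks (18.5%, background 16.1%) differed from the others by 2.51 points, with an interval that included 0 (-0.996 to 6.53). The large difference in Nkx6.1 between Gli3 peaks with and without Nkx2.2 was thus small among Nkx2.2 peaks with and without Gli3, whereas that in Olig2 was seen from both sides.

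The distance between Gli3 and Nkx2.2 centres was also read by class of member. Its median was 74 bp (64 to 90) in the 277 members with neither Olig2 nor Nkx6.1 and 66 bp (49 to 77) in the 148 with either, among them 66 with both factors and a median of 51 bp (38 to 85), so these intervals overlapped. Centres under 50 bp apart made up 41.9% of members with either factor and 31.0% of those with neither, a difference of 10.8 points (1.32 to 20.4). Under 25 bp apart were 29 of the 148 with either and 50 of the 277 with neither. At most 100 bp apart were 70.9% and 62.5%. The rule used this distance, so these values are a description, and the difference depends on the cut-off. In the 136 members with Olig2, the median distances were 62.5 bp from Gli3 to Nkx2.2, 73 bp from Gli3 to Olig2 and 72 bp from Nkx2.2 to Olig2. Nkx2.2 was nearer to the Gli3 centre in 79 of them and Olig2 in 54, and the Gli3 centre fell between the other 2 centres in 53 and outside them in 83. In the 78 members with Nkx6.1 the 3 median distances were 57, 59.5 and 62.5 bp, and Nkx2.2 was nearer to Gli3 in 43 and Nkx6.1 in 35. These medians all fell between 57 and 73 bp.

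The deposited order of the lists gave a further view of the members. In each list of a ventral factor, line number and block 1 coverage of its own table ran in opposite directions (over its peaks, Spearman rho was -0.83 in the Nkx2.2 list, -0.89 in the Nkx6.1 list and -0.93 in the Olig2 list, as a description). The meaning of the order is not stated for any list, and for Gli3 it could not be compared with coverage. The Gli3 list was divided into 4 sections of 472 lines, from the top (section 1) to the end (section 4). The share of peaks that met Nkx2.2 was 25.2% (21.5 to 29.3) in section 1, 24.4% in section 2, 20.8% in section 3 and 19.7% (16.4 to 23.5) in section 4. That modest slope hid different courses of the 2 kinds of member. Peaks with Nkx2.2 and also Olig2 or Nkx6.1 fell from 13.1% (10.4 to 16.5) of section 1 to 3.18% (1.94 to 5.18) of section 4, while peaks with Nkx2.2 and neither went from 12.1% (9.44 to 15.3) to 16.5% (13.4 to 20.1), with overlapping intervals.

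**Figure D2:**
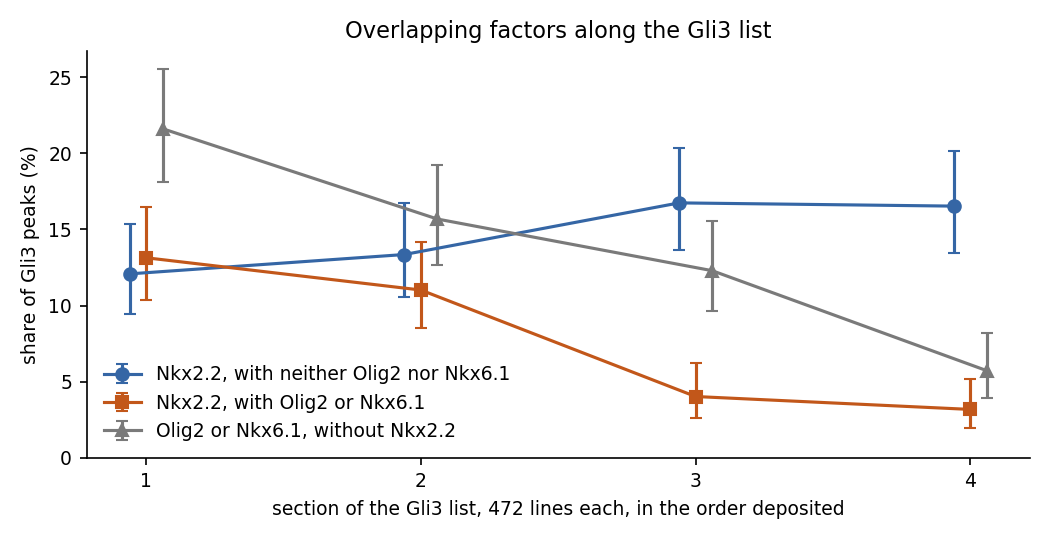
Share of Gli3 peaks (vertical axis, %) in each section of the Gli3 list (horizontal axis, deposited order, 472 peaks per section) that meet Nkx2.2 with neither Olig2 nor Nkx6.1 (blue circles), Nkx2.2 with either of them (orange squares), or either of them without Nkx2.2 (grey triangles). Bars are 95% Wilson intervals; the orange and grey shares fall to 3.18% and 5.72% in section 4, and the blue share ends at 16.5%.

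Early and late members thus differed in make-up. Among members in section 1 of the Gli3 list, 62 of 119 (52.1%, 43.2 to 60.9) also held Olig2 or Nkx6.1, against 15 of 93 (16.1%, 10.0 to 24.9) in section 4. Gli3 peaks without Nkx2.2 showed the same course at lower levels, from 28.9% (24.4 to 33.8) to 7.12% (4.94 to 10.2). The excess of members over other Gli3 peaks was 23.2 points (13.0 to 33.1) in section 1, 24.5 (14.6 to 34.4) in section 2 and 9.01 (2.18 to 18.1) in section 4, whereas in section 3 it was 3.88 with an interval that included 0 (-3.86 to 13.4). Along the Nkx2.2 list the course was the reverse, since Gli3 lay at 5.91% (4.78 to 7.27) of the first 1388 lines and at 9.52% (8.08 to 11.2) of the last 1387. Across the 439 partner peaks, the line number in the Gli3 list had a rho of -0.23 with block 1, -0.28 with block 2 and 0.19 with block 3.

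Coverage of the Nkx2.2 table, averaged within 250 bp of the centre, was used to ask whether the partner peaks differed from the rest of the Nkx2.2 list. In block 1 the partner peaks ranged from 6.97 to 162.8 units with a median of 19.1 (order-statistic interval 17.8 to 20.2), against 18.4 (18.1 to 18.6) in the other Nkx2.2 peaks. In block 2 they ranged from 0.836 to 34.9 with a median of 4.97 (4.48 to 5.34), against 4.40 (4.32 to 4.50). In block 3 they ranged from 0.268 to 10.4 with a median of 1.69 (1.57 to 1.82), against 1.16 (1.13 to 1.19). The medians of partner peaks were thus 1.04, 1.13 and 1.46 times those of the others in the 3 blocks, and the ranges overlapped throughout. Block 3 had the smallest rise over its flanks. Its partner median of 1.69 stood beside 0.694 units in the flanks over 1000 bp away, where block 1 had 19.1 beside 1.05. The flanks of partner peaks were 1.38, 1.27 and 1.14 times those of other Nkx2.2 peaks.

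Splitting the partner peaks by the other ventral factors separated 2 patterns. Partner peaks with neither Olig2 nor Nkx6.1 (277 against 3590 other Nkx2.2 peaks of the same kind) had medians of 16.4 against 16.8 units in block 1 and 3.85 against 3.88 in block 2, but 1.99 (1.89 to 2.08) against 1.30 (1.26 to 1.35) in block 3. The ratios were 0.974, 0.994 and 1.53. Partner peaks with Olig2 or Nkx6.1 (162 against 1522) had 25.1 against 23.4 units in block 1, 9.69 (7.71 to 11.1) against 6.73 (6.36 to 7.08) in block 2 and 1.26 (1.11 to 1.41) against 0.978 (0.955 to 1.00) in block 3. Their ratios were 1.07, 1.44 and 1.29. With both factors (70 against 490) the ratios were 1.07 in block 1, 1.54 in block 2 and 1.10 in block 3. So where Nkx2.2 was the only ventral factor, the means over 250 bp were higher with Gli3 in block 3 and had overlapping intervals in blocks 1 and 2. At the centre position itself these peaks had a lower block 1 median with Gli3, 31.9 units (30.2 to 33.7) against 37.2 (36.0 to 37.8), and the block 2 medians were 5.36 against 5.85 with intervals that met. Where other ventral factors joined Nkx2.2, the means were higher with Gli3 in blocks 2 and 3.

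**Figure D3:**
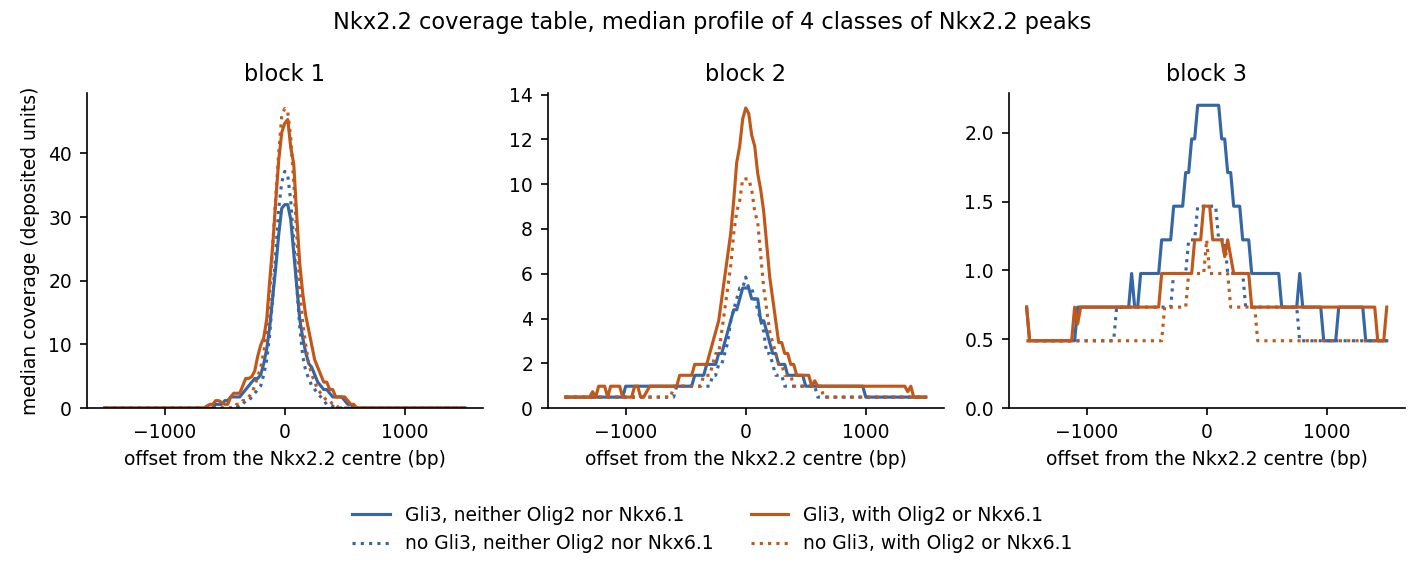
Median coverage in the Nkx2.2 table (vertical axes, deposited units, a different scale per block) by offset from the Nkx2.2 centre (horizontal axes, bp) in blocks 1, 2 and 3, for 4 classes of Nkx2.2 peaks: with Gli3 (solid) or without (dotted), and with neither Olig2 nor Nkx6.1 (blue) or with either (orange). In block 1 the solid summits lie slightly below the dotted ones and the solid flanks slightly above; in block 2 the solid orange line lies above the dotted one while the blue lines lie together, and in block 3 both solid lines lie above the dotted ones at the centre, the blue pair the furthest apart.

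Ranks within the list were also read as shares. By definition 25.0% of Nkx2.2 peaks fall in the highest quartile of each block. Of the 439 partner peaks, 109 (24.8%, 21.0 to 29.1) were in it for block 1, 124 (28.2%, 24.2 to 32.6) for block 2 and 180 (41.0%, 36.5 to 45.7) for block 3. Only block 3 gave a share whose interval lay above the background. Of the 277 partner peaks with neither Olig2 nor Nkx6.1, 154 (55.6%, 49.7 to 61.3) were in the highest quartile of block 3, compared with 31.2% of all Nkx2.2 peaks of that kind. In blocks 1 and 2 they were there less often, 35 (12.6%, 9.23 to 17.1) against 17.9% and 30 (10.8%, 7.69 to 15.0) against 15.9%. Against the peaks of that kind without Gli3 the differences were -5.67 points (-9.31 to -1.07) in block 1, -5.49 (-8.87 to -1.12) in block 2 and 26.2 (20.2 to 32.2) in block 3. Of the 162 with either factor, 94 (58.0%, 50.3 to 65.4) were in the highest quartile of block 2, compared with 45.8% of all Nkx2.2 peaks of that kind. A total of 26 of these 162 (16.0%, 11.2 to 22.5) were in that of block 3, compared with 10.7%. Against peaks of that kind without Gli3 the differences were 4.81 points (-3.07 to 12.9) in block 1, 13.5 (5.45 to 21.3) in block 2 and 5.93 (0.814 to 12.5) in block 3.

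Read in the other direction, the share of Nkx2.2 peaks with a Gli3 peak was lowest in the bottom quartile of block 2 and about level above it, and it rose across block 3 at every level of block 1 and block 2. By quartile of block 2, it was 5.76%, 8.50%, 8.44% and 8.94% from the lowest to the highest. By quartile of block 1 it was 6.34%, 8.62%, 8.82% and 7.85%, so it did not fall steadily with block 1 coverage, unlike the course along the Nkx2.2 list. Among Nkx2.2 peaks in the lowest quartile of block 1 it rose with block 3 from 1.83% (5 of 273) to 9.83% (41 of 417), and in the highest quartile of block 1 from 2.66% (11 of 413) to 16.1% (30 of 186, 11.5 to 22.1). The steepest contrast was with block 2, from 1.00% (3 of 299, 0.342 to 2.91) where both were in the lowest quartile to 18.9% (27 of 143, 13.3 to 26.1) where both were in the highest. Blocks 1 and 2 rose together across the partner peaks (Spearman rho 0.69), whereas block 3 ran weakly against block 1 (-0.19) and block 2 (-0.20).

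**Figure D4:**
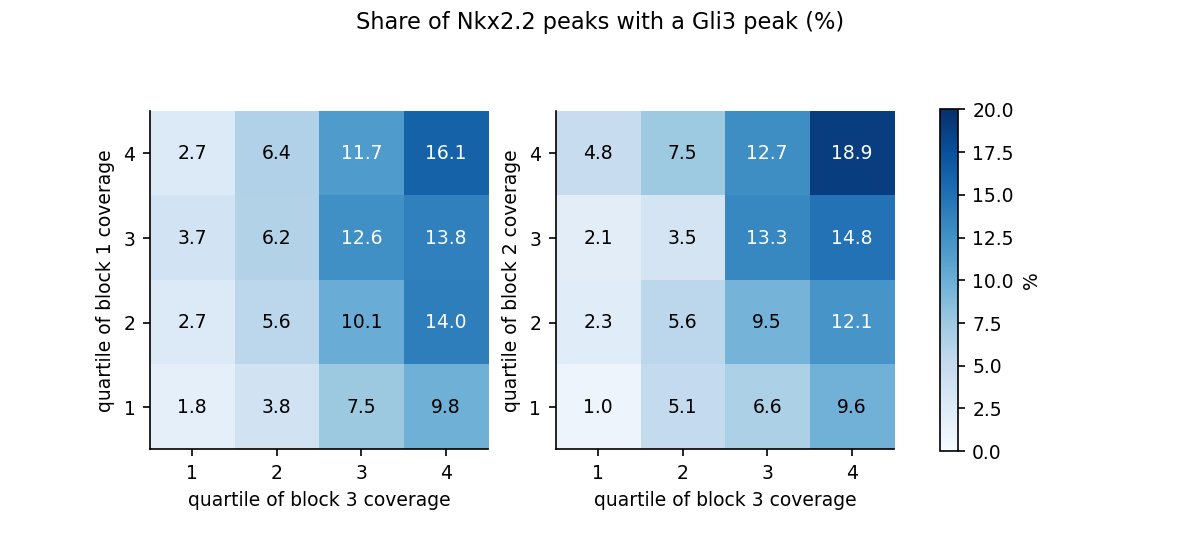
Share of Nkx2.2 peaks that meet a Gli3 peak (%, colour and printed value) by quartile of block 3 coverage (horizontal axes, 1 is lowest) and by quartile of block 1 (left) or block 2 (right) coverage (vertical axes). Shares rise along every row, to 16.1% and 18.9% in the top right cells.

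The class of the Nkx2.2 peak and its block 3 coverage each went with Gli3. Among Nkx2.2 peaks with neither Olig2 nor Nkx6.1, the share with Gli3 by quartile of block 3 was 1.24%, 3.91%, 8.38% and 12.7%. Among those with either factor it was 5.49%, 8.19%, 14.4% and 14.4%. In the lowest quartile the intervals of the classes did not overlap (0.695 to 2.21 against 3.83 to 7.82), whereas in the highest they did (11.0 to 14.7 against 10.1 to 20.3).

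The other ventral tables measured the members by factors that the rule left out. In the Olig2 table, the 143 Olig2 peaks that met both Gli3 and Nkx2.2 had a median of 18.1 units (15.6 to 22.1) in block 1 and 23.8 (20.8 to 27.5) in block 2. The 240 Olig2 peaks with Gli3 and no Nkx2.2 had 14.9 (12.5 to 16.3) and 16.4 (14.6 to 18.3), the 1172 with Nkx2.2 and no Gli3 had 16.1 (15.0 to 17.1) and 15.2 (14.3 to 16.3), and the 10192 with neither had 10.8 and 7.71. The medians in blocks 1 and 2 of the Olig2 table were thus highest at Olig2 peaks that met peaks of both other lists. In block 2 their interval lay apart from those of the other classes. In block 1 it overlapped both classes with Gli3 or Nkx2.2. In the Nkx6.1 table, the 79 Nkx6.1 peaks with both had 15.7 (13.0 to 17.6) in block 1 and 13.6 (10.3 to 15.2) in block 2. Those with Gli3 and no Nkx2.2 (63 peaks) had 11.1 (9.74 to 13.6) and 7.82 (5.72 to 10.2). Those with Nkx2.2 and no Gli3 (803) had 13.5 (13.2 to 14.3) and 8.27 (7.78 to 8.91), and those with neither (3149) had 9.59 and 4.45. The interval of the Nkx6.1 peaks with both overlapped those of both classes with Gli3 or Nkx2.2 in block 1 and lay above them in block 2. In block 3 the medians were 1.21 (1.12 to 1.33), 1.06 (0.971 to 1.14), 0.896 and 0.672 units in the Olig2 table and 1.20 (1.08 to 1.25), 0.934 (0.859 to 1.12), 0.766 and 0.635 in the Nkx6.1 table, with the classes in the order given, and the intervals of the first 2 classes overlapped in both tables.

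The profiles of partner peaks leaned towards Gli3. For the 356 partner peaks with 1 Gli3 peak whose centre lay at least 25 bp away, coverage between 75 and 250 bp from the Nkx2.2 centre was compared on the Gli3 side and the opposite side, as log2 of the ratio with 0.1 units added. The median was 0.35 (0.17 to 0.46) in block 1, 0.45 (0.28 to 0.61) in block 2 and 0.15 (0.03 to 0.30) in block 3. The Gli3 side was higher in 219 partner peaks (61.5%, 56.4 to 66.4), 237 (66.6%, 61.5 to 71.3) and 198 (55.6%, 50.4 to 60.7). The profiles of the whole Nkx2.2 list were not symmetrical either, with the right side higher in 55.0%, 53.1% and 51.3% of peaks in blocks 1, 2 and 3, and this moved with the lean in block 1. There the Gli3 side was higher in 68.1% (61.1 to 74.3) of the 188 partner peaks with Gli3 to the right and in 54.2% (46.6 to 61.5) of the 168 with Gli3 to the left. The block 1 medians were 0.59 (0.37 to 0.76) and 0.09 (-0.06 to 0.35), so with Gli3 to the left the interval included 0. In block 3 the medians were 0.18 (-0.03 to 0.38) and 0.11 (-0.08 to 0.37), and both intervals included 0. In block 2 the shares were 69.7% (62.8 to 75.8) and 63.1% (55.6 to 70.0), so the lean was present on both sides.

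In blocks 1 and 2 the lean was also seen within each kind of partner peak. Those with Olig2 or Nkx6.1 (132) had medians of 0.45 (0.22 to 0.76) in block 1 and 0.65 (0.35 to 0.92) in block 2, and those with neither (224) had 0.25 (0.05 to 0.43) and 0.35 (0.15 to 0.58). In block 3 the medians were 0.18 with either factor and 0.14 (-0.06 to 0.36) with neither, and neither interval lay clear of 0. Among the 295 with no other Nkx2.2 peak within 2000 bp, the medians were 0.30 (0.13 to 0.44), 0.38 (0.23 to 0.55) and 0.13 (-0.02 to 0.35), so in block 3 the interval then included 0.

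Coverage of the Nkx2.2 table at the Gli3 centre itself extended this beyond the rule. It was compared with coverage at the mirror position, the same distance on the other side of the Nkx2.2 centre. In the 148 members with centres under 50 bp apart, the medians at the Gli3 centre and at its mirror were the same in block 1, 41.8 units each. In the 187 members with centres 50 to 150 bp apart, they were 24.4 against 23.8 units in block 1, with 96 higher at the Gli3 centre and 88 lower. Blocks 2 and 3 had 5.85 against 4.88 and 1.96 against 1.71 units there, with 118 and 94 members higher and 57 and 71 lower. In the 90 members with centres 150 to 300 bp apart, the medians were 9.29 against 4.94 units in block 1, 3.90 against 2.44 in block 2 and 1.96 against 0.978 in block 3. Coverage was higher at the Gli3 centre in 61, 59 and 58 of these 90 members, and lower in 24, 24 and 27. Among the 110 Gli3 peaks just beyond the rule, 300 to 2000 bp from an Nkx2.2 centre, the medians were 7.55 against 0 in block 1, 2.93 against 0.975 in block 2 and 1.47 against 0.978 in block 3. With the 10 that had another Nkx2.2 peak within 2000 bp of the Nkx2.2 peak left out, 82, 81 and 70 of 100 were higher at the Gli3 centre and 15, 14 and 26 lower. At Gli3 centres just outside the rule, median coverage of the Nkx2.2 table was thus above that at the mirror position, in block 3 as in the others. It lay below the level at the listed Nkx2.2 centre, which had a block 1 median of 31.7 units in these 100. The table does not reach Gli3 peaks over 2000 bp from an Nkx2.2 centre, so there is no baseline for such sites. Whether Nkx2.2 bound at these Gli3 centres was not tested.

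**Figure D5:**
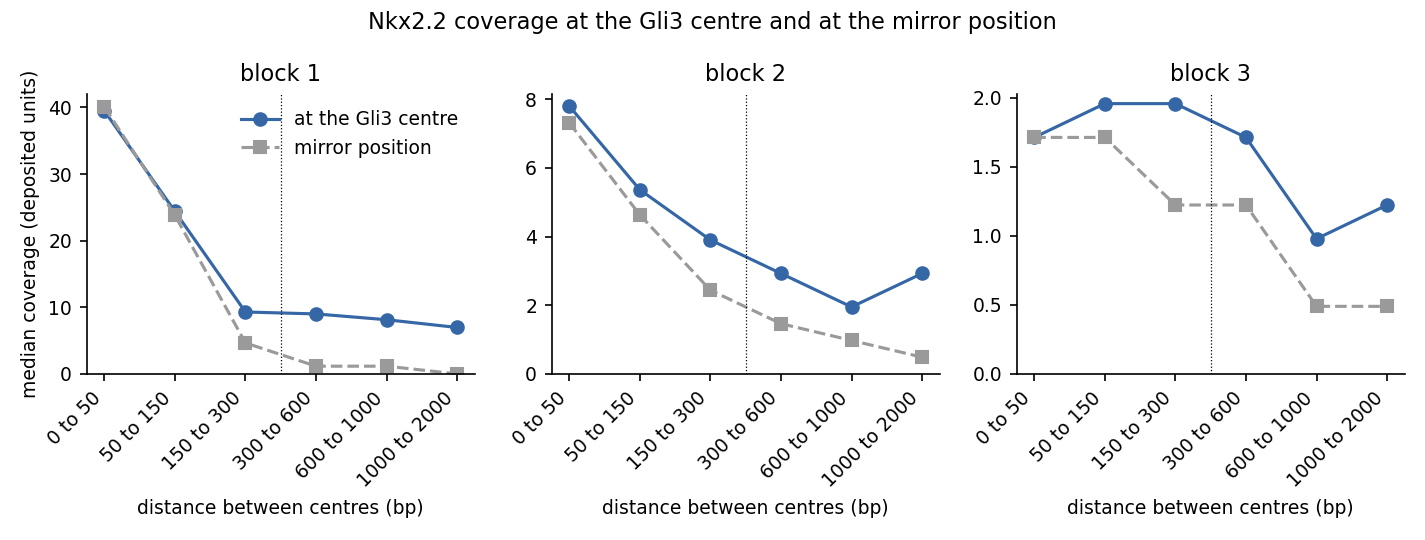
Median coverage in the Nkx2.2 table (vertical axes, deposited units, a different scale per block) at the Gli3 centre (blue circles) and at the mirror position (grey squares) by distance between the centres (horizontal axes, bp), for Nkx2.2 peaks with no other Nkx2.2 peak within 2000 bp. Bins left of the dotted line are members. The medians are alike under 50 bp, and from 50 to 150 bp block 1 has 24.4 against 23.8 units. From 150 bp on the blue point lies above the grey one in every bin and block.

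Single regions show the range of the members. The partner peaks with the highest mean rank in blocks 1 and 2 were led by the member at chr2:150561578-150561877, where block 1 reached 162.8 units, block 2 27.6 and block 3 1.18. It held all 4 factors, and its Olig2 and Nkx6.1 peaks had 186.5 and 20.8 units in block 1 of their own tables. The member at chr19:45533163-45533462 had 93.4 units in block 1 and 32.7 in block 2, and its Olig2 peak had 570.3 units in block 1 of the Olig2 table. Its Gli3 peak stood at line 1518 of the Gli3 list, and its Nkx2.2 flanks had 31.2 units in block 1, far above the median of 1.05. The member at chr13:39615790-39616089, also with all 4 factors, had 71.6 units in block 1 and the highest block 2 value of all members, 34.9, with Gli3 and Nkx2.2 centres 16 bp apart. The other 2 were chr2:137530970-137531269, with 97.1 units in block 1, Nkx6.1 and no Olig2, and chr6:36725966-36726265, with 71.8 units and both.

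None of the 3 members highest in block 3 held Olig2 or Nkx6.1. The same was true of 65.2% of all members, and of 154 of the 180 partner peaks in the highest quartile of block 3. The 3 members were chr8:20020087-20020386 with 10.4 units in block 3 and 28.7 in block 1, chr1:90174084-90174383 with 6.03 and 46.4 units, and chr10:80500019-80500318 with 4.73 and 52.9 units. They were high in the other blocks too, with block 2 values of 24.0, 7.82 and 9.12. The highest quartiles began at 26.1 units in block 1 and 7.64 in block 2. The value of 10.4 was the highest block 3 coverage in the whole Nkx2.2 list, where peaks without Gli3 reached 6.07. The 3 members lowest in blocks 1 and 2, chr11:90252175-90252474, chr5:151324962-151325261 and chr15:8579470-8579769, had 6.97 to 8.66 units in block 1 and held neither Olig2 nor Nkx6.1.

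The 66 members with all 4 factors spanned wide ranges of coverage. Their lowest, median and highest values were 9.99, 29.6 and 162.8 units in block 1, 3.25, 13.5 and 34.9 in block 2, and 0.280, 1.08 and 2.26 in block 3. Their median in block 1 compares with 19.1 units for all partner peaks, and that in block 3 with 1.69.

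Members were found on all 19 autosomes, between 7 on chromosome 18 and 62 on chromosome 8, with 1 on X and 0 on Y. Chromosome 8 held 14.6% (11.5 to 18.3) of the members. Its share of all Gli3 peaks was 14.2% and its share of Nkx2.2 peaks 5.80%. Gli3 peaks there were members about as often as elsewhere, 23.1% (18.5 to 28.5) of 268 against 22.4% (20.4 to 24.5) of 1620. Nkx2.2 peaks there met Gli3 more often, 59 of 322 (18.3%, 14.5 to 22.9) against 380 of 5229 (7.27%), beside the larger number of Gli3 peaks on that chromosome. Partner peaks on chromosome 8 had a block 3 median of 2.08 units (1.89 to 2.55) against 1.60 (1.48 to 1.74) elsewhere, and a block 1 median of 18.4 against 19.2. Nkx2.2 peaks without Gli3 were also higher in block 3 on chromosome 8, with a median of 1.32 (1.16 to 1.49) against 1.15 (1.13 to 1.18) elsewhere. Without chromosome 8, the partner peaks were 1.38 times the others in block 3.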

How the data were processed

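The authors deposited 4 peak lists, 1 per factor, as chromosome, start and end without score, and 3 coverage tables of the ventral lists, with offsets of 25 bp per the file headers. Bowtie2 2.2.4, HOMER and the build mm9 are listed in the submitters' processing notes, and the sources used here do not say which tool made which file or whether replicates were pooled. The unit of the deposited coverage is not stated, and 0 columns of other samples were left out. Samples were grouped from their titles. The members and lists were chosen with earlier results of these data known, and the analyses of list order and chromosomes were chosen after seeing the data.

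Table rows were matched to list lines, which was checked on neighbouring peaks of a list (median correlation of aligned profiles at least 0.970, and at most 0.640 with rows shifted by 1). Overlap meant 1 bp or more in common. Coverage was the mean over offsets up to 250 bp from the centre and, for flanks, from 1000 to 1750 bp on both sides, in each block. Shares have 95% Wilson intervals, differences of shares Newcombe intervals, and medians order-statistic intervals. For a ratio of medians, the limits of the partner median were divided by the median of the other peaks, taken as fixed. Quartiles were cut over the 5551 Nkx2.2 peaks. The functions were tested on simulated data. Python 3.11.15, NumPy 2.4.6, pandas 2.3.3, SciPy 1.17.1, statsmodels 0.14.6 and Matplotlib 3.10.9 were used. Alternatives changed the overlap rule, the window, the flank, the class of peak, the chromosome set and, added after seeing the data, the pseudocount and neighbouring peaks.

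Regions named were the 5 members with the highest mean rank of the partner peak in blocks 1 and 2, the 3 highest in block 3, the 3 lowest in blocks 1 and 2, the 3 with the smallest overlap, the 3 Gli3 peaks nearest outside, the 3 highest with all factors, and the first 2 windows of 100 kb with most members. The window on chromosome 6 lies outside this rule and was chosen after its values were seen. No genome or annotation of mm9 was used here, so genes, motifs and sequences at the regions were not analysed here.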

Additional observations from a re-analysis of the deposited data

How the results depend on the processing

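Of 48 alternatives to 11 results, 39 stayed within the interval of the reported value and 9 did not. The share of Gli3 peaks at Nkx2.2 was 17.8% (337 peaks) with at least 150 bp shared, 14.7% (278) with centres within 100 bp, 26.7% (505) with centres within 1000 bp, 22.4% without chromosome 8, and 8.90% (168) against the 2033 Nkx2.2 peaks at or above the median in blocks 1 and 2. The last list stood in for a stricter peak threshold, since peaks carry no score. With centres within 100 bp for every pair, the shares of members with Olig2 and Nkx6.1 were 23.0% and 14.0%, while the differences from other Gli3 peaks stayed within their intervals (12.8 and 11.1 points). The ratio of partner to other Nkx2.2 peaks was 0.924 in block 1 within 100 bp of the centre, against 1.04 as reported, whose interval (0.970 to 1.10) included 1, and 0.974 among peaks with neither Olig2 nor Nkx6.1, so block 1 has no settled direction. It was 1.86 in block 3 with each peak's own flank subtracted, and 0.994 in block 2, reversed against 1.13, among peaks with neither Olig2 nor Nkx6.1. The cause was not tested. The lean towards Gli3 kept its sign under every alternative in all 3 blocks. These alternatives did not split partner peaks by the side of Gli3, and with Gli3 to the left the block 1 interval included 0. In block 3 the lean was 0.09 with 1 unit added in place of 0.1. The motif search was not run. No paired analysis was possible because each factor has 1 list and the blocks carry no replicate number. For the same reason no replicate could be left out. Depth is unknown, so no floor is given for coverage, and block 3 values near 1 unit rest on few steps of the deposited scale.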
